A study of Mus musculus with 27 samples.

Results

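The cell cycle genes described here are 50 mouse genes, fixed as a list of names: 24 that act in S phase, 25 that act in mitosis, and Ccnd1, a G1 cyclin. All 50 were found among the 54752 genes of the deposited count tables, and all 50 passed the filter on low counts in each comparison. They were followed in 15 RNA-seq libraries of CT26 tumors, 5 in each of 3 groups. CT26 is a murine colon carcinoma line. In the Mettl3 knockout and Mettl14 knockout groups the line carried a guide RNA against Mettl3 or Mettl14, which encode the core subunits of the enzyme that writes N6-methyladenosine (m6A) on RNA. In the control group it carried a control guide RNA, so the cells of all groups went through retroviral transduction. Per the labels, cells in a PBS and Matrigel mix were placed under the flank skin of BALB/c mice, and 200 µg (10 mg/kg) of antibody was injected every 3 days from day 11 to day 23. The injection text lists antibodies to CTLA-4 and PD1 and an IgG without naming a sample, and the series design gives the treatment of all groups as anti-PD-1. The host cells of each tumor kept their own genes, and the sources used here give neither the clonal state of the knockout lines nor the age of the mice. No label ties a library to a single mouse, so the p-values below measure only how far these libraries spread.

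Cells enter S phase when cyclin D and cyclin E kinases release E2F factors from the retinoblastoma protein, and E2F then switches on the genes for DNA replication. Genes of mitosis peak later and are read through promoters that bind the NF-Y factor at CCAAT boxes and the DREAM and B-Myb complexes at a short element named CHR. In tumor tissue the RNA of both sets is a common measure of proliferation, and it comes from every dividing cell, tumor cell or immune cell alike.

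Some promoters of the members carry the letters of that division, and 6 are printed here as examples: 2 of the replicative helicase (Mcm5, Mcm6) and 4 of mitosis genes (Cdk1, Ccnb1, Ccnb2, Top2a). The division is not sharp, since both helicase windows also hold CCAAT boxes and that of Mcm5 a CHR. Each is the 250 bases before the start of the gene, 5′ to 3′ on the gene's strand, from RefSeq (GRCm38.p6). Capitals mark an E2F site (TTTCCCGC or TTTGGCGC), a CCAAT box or a CHR (TTTGAA or TTTAAA), on either strand. No motif contains another. The windows are chr8:75109259-75109508 (+ strand) for Mcm5, chr1:128359706-128359955 (- strand) for Mcm6, chr10:69352913-69353162 (- strand) for Cdk1, chr13:100786487-100786736 (- strand) for Ccnb1, chr9:70421555-70421804 (- strand) for Ccnb2 and chr11:99024190-99024439 (- strand) for Top2a.
Mcm5: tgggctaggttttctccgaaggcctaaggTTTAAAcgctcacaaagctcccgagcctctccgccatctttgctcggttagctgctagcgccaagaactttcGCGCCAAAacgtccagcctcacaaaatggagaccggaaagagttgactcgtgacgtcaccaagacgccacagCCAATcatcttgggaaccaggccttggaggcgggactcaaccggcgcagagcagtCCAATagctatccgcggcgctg
Mcm6: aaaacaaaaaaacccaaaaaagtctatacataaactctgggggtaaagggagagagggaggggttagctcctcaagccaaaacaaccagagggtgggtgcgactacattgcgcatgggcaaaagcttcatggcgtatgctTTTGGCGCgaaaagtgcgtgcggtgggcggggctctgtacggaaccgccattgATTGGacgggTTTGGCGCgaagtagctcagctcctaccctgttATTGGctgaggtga
Cdk1: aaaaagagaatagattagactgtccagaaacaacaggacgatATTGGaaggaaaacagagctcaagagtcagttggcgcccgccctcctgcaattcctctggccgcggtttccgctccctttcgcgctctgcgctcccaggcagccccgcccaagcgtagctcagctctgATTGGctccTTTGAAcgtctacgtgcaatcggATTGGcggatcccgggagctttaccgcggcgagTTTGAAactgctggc
Ccnb1: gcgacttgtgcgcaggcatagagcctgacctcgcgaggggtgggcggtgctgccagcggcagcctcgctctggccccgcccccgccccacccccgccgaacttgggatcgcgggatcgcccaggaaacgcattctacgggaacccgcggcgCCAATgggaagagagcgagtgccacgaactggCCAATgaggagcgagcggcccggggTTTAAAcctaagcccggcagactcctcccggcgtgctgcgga
Ccnb2: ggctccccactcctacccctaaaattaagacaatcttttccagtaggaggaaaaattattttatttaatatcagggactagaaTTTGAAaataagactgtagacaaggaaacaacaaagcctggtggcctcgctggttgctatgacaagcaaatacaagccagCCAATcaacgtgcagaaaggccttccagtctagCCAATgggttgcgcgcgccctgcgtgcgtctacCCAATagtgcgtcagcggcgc
Top2a: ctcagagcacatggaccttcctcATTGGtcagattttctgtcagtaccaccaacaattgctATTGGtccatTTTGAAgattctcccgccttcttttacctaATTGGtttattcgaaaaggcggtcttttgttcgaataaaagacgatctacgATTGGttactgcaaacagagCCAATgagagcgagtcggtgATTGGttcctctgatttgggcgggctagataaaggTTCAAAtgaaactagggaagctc

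Over windows of 250 bases before to 50 after the start, 42 of the 50 members had an entry, in 45 windows. An E2F site in either of the 2 spellings above stood in 6 of 24 S phase windows (25%), in 0 of 21 mitosis windows and in 1.565% of all 32851 promoters. Only these 2 spellings were searched, so a window without a match may hold another form of the site. A CCAAT box stood in 18 of 21 mitosis windows (85.71%), in 14 of 24 S phase windows (58.33%) and in 37.41% of all promoters. A CHR stood in 19 of 21 mitosis windows (90.48%), in 8 of 24 S phase windows (33.33%) and in 27.59% of all promoters. The mitosis genes also had 2 or more CCAAT boxes in 13 of 21 windows (61.9%), the S phase genes in 9 of 24 (37.5%) and all promoters in 11.7%. A match is a run of letters and was not measured as a bound site in these tumors.

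The libraries held 4.35 to 20.98 M reads in genes (M for mega), with group means of 14.2 ± 5.91 M in control, 6.57 ± 1.99 M in Mettl3 knockout and 10.6 ± 4.30 M in Mettl14 knockout (SD, n = 5). Levels below are counts-per-million values (CPM) over the reads in genes, scaled by edgeR's TMM factors over the 15 libraries. The receptor levels are the exception: they are CPM over the reads in genes without TMM scaling. Some libraries also held many reads in 1731 olfactory and vomeronasal receptor genes, a family that sensory neurons use: 209 to 5578 CPM in control, 1438 to 4895 CPM in Mettl3 knockout and 605 to 2057 CPM in Mettl14 knockout. Predicted gene models that hold satellite repeats (Gm10800, Gm10801 and others) moved with them, at 47.3%, 37.1% and 25.0% of the reads in genes in Mettl3 knockout replicates 1, 3 and 4, 21.6% in control replicate 1 and 0.054 to 10.4% elsewhere. Mitochondrial genes held 5.53 ± 2.28% of these reads in control, 1.95 ± 0.50% in Mettl3 knockout and 4.12 ± 1.01% in Mettl14 knockout (SD, n = 5). Receptor and satellite reads can come from genomic DNA as well as from RNA, their source was not tested, and each CPM is a share of a total that holds them. Control replicate 1 had the highest receptor level of all 15 libraries, and results that rest on it are given with and without it. The guide targets were a weak check of the labels. Mettl3 stood at 13.5, 21.3, 19.6, 20.3 and 22.9 CPM in control replicates 1 to 5, at 13.6, 16.3, 12.5, 13.3 and 13.5 CPM in the Mettl3 knockout libraries and at 17.3, 15.1, 17.8, 19.8 and 15.8 CPM in the Mettl14 knockout libraries. Its difference in Mettl3 knockout was -0.56 on the log2 scale (SE 0.15, edgeR adjusted p = 0.0545), and control replicate 1 lay within the Mettl3 knockout range. Mettl14 stood at 67.8, 89.8, 66.5, 61.5 and 61.7 CPM in control and at 58.5, 52.9, 80.0, 49.1 and 67.6 CPM in the Mettl14 knockout libraries, which overlapped (log2 difference -0.21, SE 0.17, adjusted p = 0.735). In the Mettl3 knockout libraries Mettl14 stood at 37.7, 70.65, 56.2, 39.3 and 70.6 CPM. Its mean there, 54.9 CPM, was below the 61.6 CPM of Mettl14 knockout. A guide RNA can disable a protein and leave its RNA, and the tumors also hold host cells, so these levels do not show how complete the knockouts were.

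Per kilobase of exon, the most abundant members were Ccnd1 at 97.0 CPM per kb, the proliferation antigen Mki67 at 85.9, the topoisomerase Top2a at 70.5, the replication clamp Pcna at 69.0 and the cytokinesis scaffold Anln at 51.1, as means of the 15 libraries. At the other end were Gins2 of the helicase at 3.34 CPM per kb, the uracil glycosylase Ung at 1.86 and the flap nuclease Fen1 at 0.54. The Fen1 value cannot be read as Fen1 expression. Other genes on the opposite strand cover 84.2% of its exon bases, and the reads per kilobase in receptor genes would alone account for 79.0 to 152% of its count in the Mettl3 knockout libraries. For the other 49 members the same share had a median of 0.475% in control, 3.68% in Mettl3 knockout and 0.993% in Mettl14 knockout, and reached 51.9% for Gins2 in 1 Mettl3 knockout library. Its median in Mettl3 knockout was 31.8% for Ung, 23.0% for Gins2 and 14.0% for Cdc6, against 7.03%, 2.69% and 2.59% in control. Gins2 also shares 67.3% of its exon bases with Gse1, and its differences are uncertain for that reason. In all, 17 members overlap another gene, 10 of them over more than 10% of their exon bases, and whether the counting used strand is not stated in the labels.

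The first comparison asked whether loss of Mettl3 changed these genes. Mettl3 knockout tumors did not differ from control at the threshold for any of the 50 members. With edgeR's quasi-likelihood test and Benjamini-Hochberg adjustment over 21427 genes, 0 members passed an adjusted p of 0.05, against 1.24% of all genes in either direction, and DESeq2 also called 0 members. At an unadjusted p under 0.05, 10 members were lower and 0 higher, where 27% of all genes were lower. The estimates lay mostly on 1 side: 48 of 50 were below 0, against 55.1% of all genes, with a median of -0.37 on the log2 scale against -0.14 for all genes tested. Set beside the 200 genes nearest in abundance, however, the members stood higher, by a median of 0.13, with 40 of 50 above those neighbours. Scaled by library totals in place of TMM, the median of all genes shifted up by 0.16, and the members' median relative to it was -0.20 in place of -0.23. In bulk tumors, fewer dividing cells and less RNA of these genes per cell cannot be told apart.

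**Figure D1:**
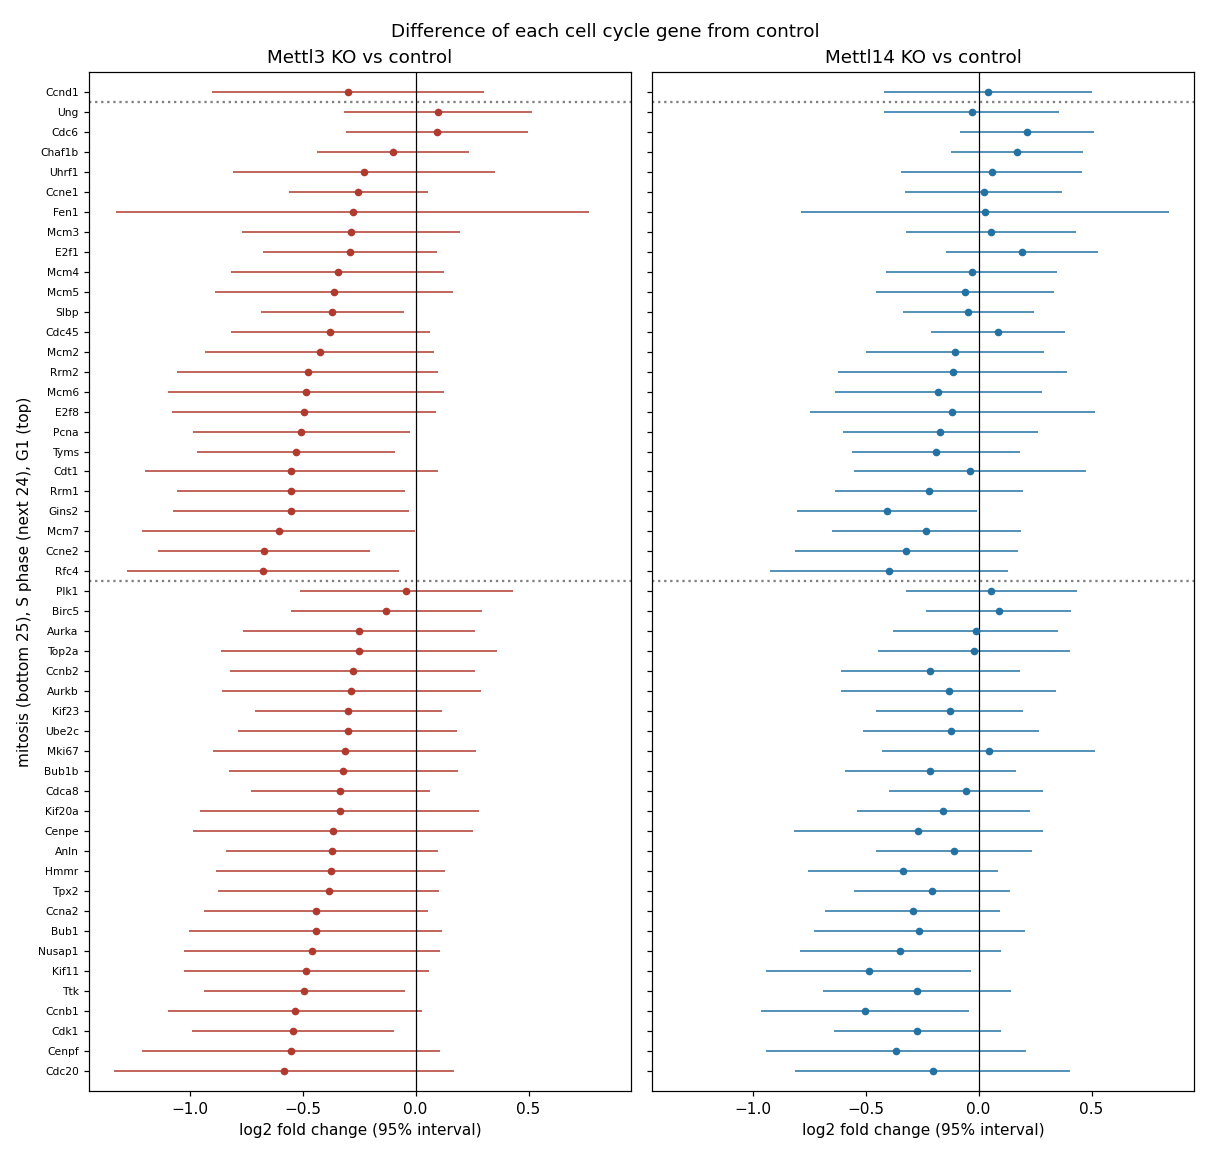
Log2 difference of each of the 50 cell cycle genes from control (points) with its 95% interval (lines) in Mettl3 knockout (left) and Mettl14 knockout (right), from edgeR, ordered by the left panel within mitosis, S phase and G1. In Mettl3 knockout 48 points lie left of 0 and in Mettl14 knockout 38, and most intervals cross 0.

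The plot of log2 differences shows how wide the intervals were beside the estimates. In Mettl3 knockout the estimates ran from -0.68 for Rfc4 to 0.10 for Ung. The only estimates above 0 were those of Ung and Cdc6, whose shares of reads at receptor density are given above. The regulators of entry into S phase are described first. Ccne2, the cyclin E that drives entry into S phase, stood at 47.2, 116, 65.6, 52.5 and 53.2 CPM in control, at 39.8, 38.2, 45.4, 39.8 and 52.2 CPM in Mettl3 knockout and at 44.8, 49.6, 64.2, 49.8 and 64.1 CPM in Mettl14 knockout. Control replicate 2 was far above the other 4 controls, and the other controls overlapped both knockouts. Its Mettl3 knockout difference was -0.67 (SE 0.22, 95% interval -1.14 to -0.20, adjusted p = 0.0692), the smallest adjusted p of the list. Ccne1, its paralog, had a difference of -0.25 (SE 0.14), and E2f1, the activating E2F, of -0.29 (SE 0.18). E2f8, a repressive E2F that closes the S phase program, had a difference of -0.49 (SE 0.27).

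The helicase genes Mcm2 to Mcm7, which unwind DNA at the fork, all had estimates below 0, from -0.29 for Mcm3 to -0.61 for Mcm7 (SE 0.28, adjusted p = 0.153). Mcm6 stood at 106, 264, 229, 232 and 243 CPM in control, at 81.3, 199, 176, 114 and 233 CPM in Mettl3 knockout and at 229.8, 130.3, 217, 193 and 199 CPM in Mettl14 knockout. The low libraries were control replicate 1 and Mettl3 knockout replicates 1 and 4, and of the remaining Mettl3 knockout libraries 1 lay within the range of the other 4 controls and 2 lay under it. The factors that load the helicase differed among themselves: Cdc6 had an estimate of 0.09 (SE 0.19) and Cdt1 of -0.55 (SE 0.30). Cdc45, which travels with the active helicase, had an estimate of -0.38 (SE 0.20).

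Pcna, Rfc4 and the nucleotide genes Rrm1 and Tyms gave 4 of the 10 unadjusted p-values under 0.05. Mcm7 and Gins2 (-0.55, SE 0.24) of the helicase were also among the 10. Pcna stood at 95.7, 235, 185, 210.0 and 215 CPM in control, at 94.4, 163, 142, 119.7 and 169.7 CPM in Mettl3 knockout and at 192, 122, 171, 204 and 166 CPM in Mettl14 knockout. Control replicate 1 lay beside the lowest Mettl3 knockout library, and the 4 other controls were above all 5 Mettl3 knockout libraries. Rfc4, of the loader that puts the Pcna clamp on DNA, had means of 15.4 ± 5.43 CPM in control, 10.0 ± 2.97 CPM in Mettl3 knockout and 11.98 ± 2.45 CPM in Mettl14 knockout (SD, n = 5). The nucleotide enzymes Rrm1 (-0.55, SE 0.23), Tyms (-0.53, SE 0.20) and Rrm2 (-0.48, SE 0.27) lay close together in Mettl3 knockout, with adjusted p = 0.129 for Rrm1 and 0.102 for Tyms. Slbp, which binds histone mRNA, had -0.37 (SE 0.15, adjusted p = 0.111). The chromatin genes had smaller estimates, -0.23 for Uhrf1, which keeps DNA methylation through replication, and -0.10 for Chaf1b of the histone loader CAF-1.

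Among mitosis genes, Cdk1 and Ttk had the smallest p-values. Cdk1, the mitotic kinase, stood at 63.1, 135, 102, 113 and 122 CPM in control, at 52.6, 93.4, 81.6, 57.5 and 97.4 CPM in Mettl3 knockout and at 99.1, 70.3, 106, 94.8 and 82.2 CPM in Mettl14 knockout. The lowest control, replicate 1, lay among the Mettl3 knockout libraries, and the other 4 controls were above all 5 of them. The difference was -0.54 (SE 0.21, 95% interval -0.99 to -0.09, adjusted p = 0.102). Its partners Ccnb1 (-0.53, SE 0.26), Ccna2 (-0.44, SE 0.23) and Ccnb2 (-0.28, SE 0.25) had wider intervals. Ttk and Bub1, kinases of the spindle checkpoint, had -0.49 (SE 0.20) and -0.44 (SE 0.26), and Bub1b had -0.32 (SE 0.23).

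The motors and kinetochore proteins spread further. Kif11, the motor that separates the spindle poles, had -0.48 (SE 0.25), Kif23 of the midzone -0.30 (SE 0.19) and Kif20a -0.34 (SE 0.28). Cenpf, of the outer kinetochore, had the widest spread of all members, 4.96-fold from the lowest to the highest library, with 407, 977, 607, 460.4 and 434 CPM in control, 197, 439, 415, 312 and 682 CPM in Mettl3 knockout and 428, 391, 669, 301 and 483 CPM in Mettl14 knockout. The controls alone spanned most of that range. Cdc20, the activator of the anaphase ligase, had a large estimate and a large error in Mettl3 knockout (-0.58, SE 0.35, adjusted p = 0.242). The kinases Plk1 (-0.04, SE 0.22), Aurka (-0.25, SE 0.24) and Aurkb (-0.28, SE 0.26) and the survivin gene Birc5 (-0.13, SE 0.19) had smaller estimates than Cdc20. The remaining mitosis genes ran from Nusap1 to Top2a: Nusap1 (-0.46), Tpx2 (-0.38) and Hmmr (-0.38), which shape spindle microtubules, the kinetochore motor Cenpe (-0.37), Anln (-0.37), the chromosomal passenger Cdca8 (-0.33), the ubiquitin carrier Ube2c (-0.30) and Top2a (-0.25).

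Mki67 and Ccnd1, which are often read as single markers of proliferation, did not separate the groups. Mki67 stood at 636, 1392, 919, 777 and 762 CPM in control, at 423, 897, 614, 617 and 1216 CPM in Mettl3 knockout and at 884, 816, 1298, 733 and 981 CPM in Mettl14 knockout. The 3 highest libraries came from the 3 groups, 1 from each, and the groups overlapped over most of their range. The Mki67 difference was -0.31 in Mettl3 knockout (95% interval -0.90 to 0.27) and 0.04 in Mettl14 knockout (SE 0.22). Ccnd1 stood at 281, 392, 443, 552 and 683 CPM in control, at 238, 570.5, 427, 276 and 513 CPM in Mettl3 knockout and at 631, 403, 542, 437 and 463 CPM in Mettl14 knockout, with differences of -0.30 (SE 0.28) and 0.04 (SE 0.21).

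**Figure D2:**
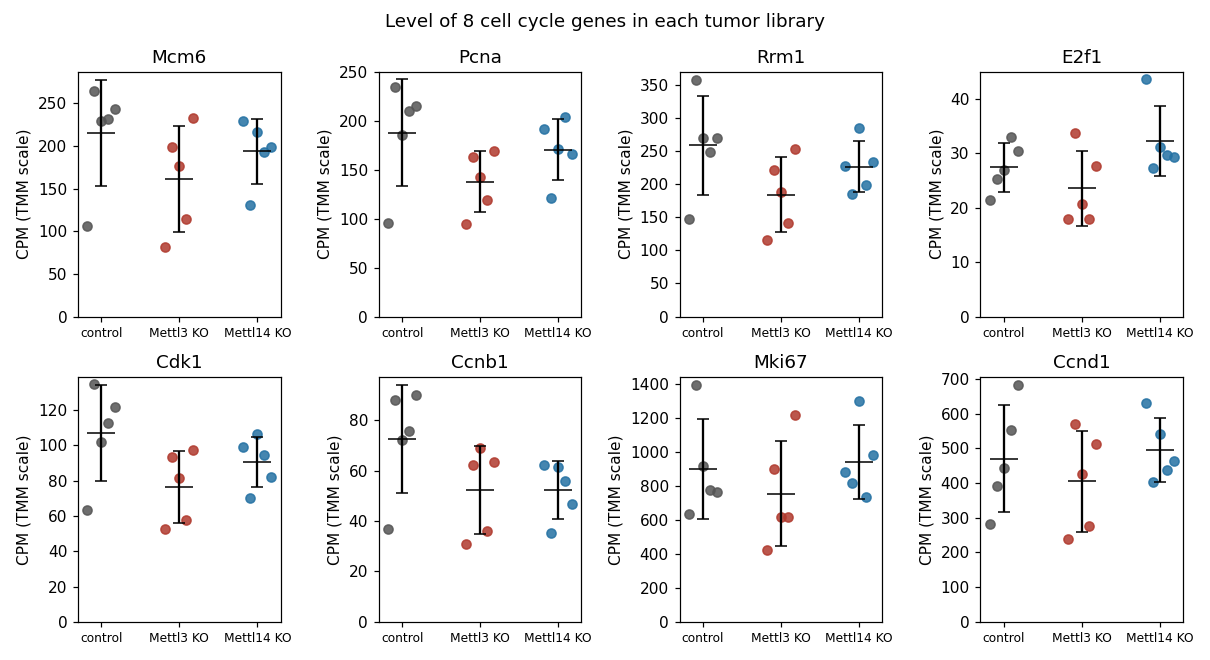
Level of 8 cell cycle genes in each library (points, CPM on the TMM scale), with the group mean and SD (black dash and bar, n = 5). The 3 groups overlap for every gene shown. For Mcm6 the lowest control, at 106 CPM, lies below the other 4, at 229 to 264 CPM.

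The plot of 8 genes by library shows that the same libraries were low for gene after gene. Leaving out control replicate 1, chosen as the library with the most receptor reads, 4 members passed the test in Mettl3 knockout, all lower. In that fit 51.6% of all genes passed, 15.4% as lower and 36.2% as higher. Rfc4 fell by 0.65 on the log2 scale (adjusted p = 0.0188), Pcna fell by 0.46 (adjusted p = 0.0364), Cdk1 fell by 0.46 (adjusted p = 0.0383) and Ccne2 fell by 0.56 (adjusted p = 0.0384). These genes lie at chr16:23113943-23127737 (- strand) for Rfc4, chr2:132249162-132253314 (- strand) for Pcna, chr10:69335146-69352938 (- strand) for Cdk1 and chr4:11191351-11204779 (+ strand) for Ccne2 (GRCm38, GENCODE M21), and the counts cover their exons. Over the 20 alternatives the adjusted p ran from 0.0188 to 0.947 for Rfc4, from 0.0316 to 0.967 for Pcna, from 0.0215 to 0.811 for Cdk1 and from 0.0384 to 0.418 for Ccne2. Without control replicate 1 and with the receptor reads per kilobase taken off every count, 0 members passed and the median was -0.04. In that setting, added after seeing the data, 3206 of 17352 genes passed.

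The second comparison asked the same of Mettl14. No member passed in Mettl14 knockout against control: edgeR called 0 of 50 members and 0% of all 21555 genes, and DESeq2 called 0 members. At an unadjusted p under 0.05, 3 members were lower, against 6.6% of all genes. These were Ccnb1 (-0.50, SE 0.21, 95% interval -0.96 to -0.04, adjusted p = 0.398), Kif11 (-0.49, SE 0.21, adjusted p = 0.406) and Gins2 (-0.40, SE 0.18, adjusted p = 0.431). Estimates were below 0 for 38 of 50 members, against 60.8% of all genes, with a median of -0.12 against -0.09 for all genes. Against genes of like abundance, 25 members lay above and 25 below. Scaled by library totals, the median of all genes shifted up by 0.16 and that of the members was 0.05, which turns the direction, while relative to all genes it was -0.04 with TMM and -0.03 with library totals.

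Ccnb1, the cyclin that activates Cdk1 for mitosis, stood at 36.7, 88.2, 72.0, 75.8 and 89.8 CPM in control, at 30.8, 62.2, 69.1, 36.2 and 63.3 CPM in Mettl3 knockout and at 62.3, 35.2, 61.3, 56.1 and 46.8 CPM in Mettl14 knockout. All 5 Mettl14 knockout libraries were below the 4 controls other than replicate 1, which was lower than 4 of them. Without control replicate 1, Ccnb1 fell by 0.65 in Mettl14 knockout (adjusted p = 0.0449, and 0.0449 to 0.9998 over the 20 alternatives) and was the only member to pass, where 4.86% of all genes passed, 2% as lower and 2.86% as higher. With the receptor reads per kilobase also taken off every count, 0 members passed, where 370 of 18670 genes did. The S phase estimates lay nearer 0. The highest estimates were those of Cdc6 (0.21, SE 0.14), E2f1 (0.19, SE 0.15) and Chaf1b (0.17, SE 0.13), and none of these passed.

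The 2 knockouts were then compared with each other in 1 fit of all 15 libraries. With edgeR, 0 members and 0% of all 24566 genes passed, and DESeq2 called 0 members. Estimates for Mettl3 knockout less Mettl14 knockout were below 0 for 47 of 50 members, against 50.7% of all genes, with a median of -0.24 against -0.01. Set beside genes of like abundance the members stood higher, by a median of 0.11, with 41 of 50 above. Leaving out 1 knockout library moved the median between -0.40 and -0.09: it was -0.09 and -0.15 without Mettl3 knockout replicates 1 and 4, -0.12 and -0.11 without Mettl14 knockout replicates 1 and 5, and -0.40 without Mettl3 knockout replicate 5. At an unadjusted p under 0.05, 1 member was lower in Mettl3 knockout, against 8.04% of all genes, and 0 were higher, against 4.79%. The lower member was E2f1 (-0.45, SE 0.20, 95% interval -0.86 to -0.03, adjusted p = 0.349), at 21.4, 25.3, 27.0, 33.1 and 30.4 CPM in control, at 17.9, 33.7, 20.6, 17.9 and 27.6 CPM in Mettl3 knockout and at 43.6, 27.4, 31.2, 29.7 and 29.4 CPM in Mettl14 knockout. Mettl14 knockout replicate 1 was the highest E2f1 library, and the 4 others overlapped both other groups. For no member did all 5 libraries of 1 group lie above or below all 5 of another, in any of the 3 comparisons. Among all genes, such separation downward was seen in 1.68% for Mettl3 knockout, 0.701% for Mettl14 knockout and 1.87% for Mettl3 against Mettl14 knockout, and upward in 1.76%, 0.682% and 1.65%. The 2 comparisons with control share the 5 control libraries, so their values are not independent of each other.

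S phase and mitosis genes were then set apart. In Mettl3 knockout the median log2 difference was -0.40 for the 24 S phase genes and -0.37 for the 25 mitosis genes. Compared with genes of like abundance the medians were 0.08 and 0.17. In Mettl14 knockout the medians were -0.05 for S phase and -0.21 for mitosis, a gap of 0.154 that was 0.039 without control replicate 2. For the knockouts against each other, the medians were -0.30 for S phase and -0.14 for mitosis, and 0.05 and 0.23 compared with genes of like abundance. That gap of -0.157 was -0.089 and -0.099 without Mettl14 knockout replicates 1 and 4 and -0.091 without Mettl3 knockout replicate 5.

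For each library, the median over genes of the log2 level relative to the gene's geometric mean over the 15 libraries gives an index, in which 0 is the average library. The S phase index less the mitosis index was -0.04 ± 0.19 in control, -0.03 ± 0.11 in Mettl3 knockout and 0.09 ± 0.10 in Mettl14 knockout (SD, n = 5). The spread within control exceeded the gaps between groups. Control replicate 2 had the lowest value, -0.37, with mitosis genes at 0.57 and S phase genes at 0.21.

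**Figure D3:**
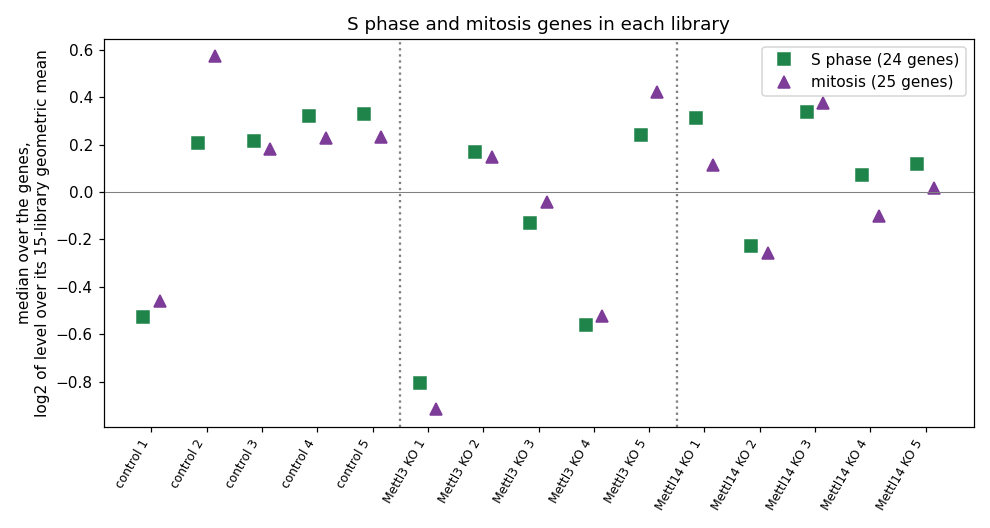
Median log2 level of the 24 S phase genes (squares) and the 25 mitosis genes (triangles) in each library, relative to each gene's geometric mean over the 15 libraries. Both sets are lowest together in Mettl3 knockout replicate 1, at -0.81 and -0.92, and they part most in control replicate 2, at 0.21 and 0.57.

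As the plot of both sets by library shows, they varied together from library to library more than they parted. The index over all 50 members was -0.50, 0.41, 0.19, 0.28 and 0.29 in control replicates 1 to 5. It was -0.86, 0.15, -0.06, -0.55 and 0.30 in Mettl3 knockout and 0.19, -0.24, 0.35, -0.02 and 0.07 in Mettl14 knockout. The 3 lowest libraries were thus 2 of Mettl3 knockout and 1 control, and the other 3 Mettl3 knockout libraries lay within the range of the other groups. Mettl3 knockout replicate 1 was the lowest library for 41 of the 50 members, and control replicate 2 the highest for 21. Without Mettl3 knockout replicate 1, the median difference from control was -0.07 in place of -0.37, and without replicate 4 it was -0.13.

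**Figure D4:**
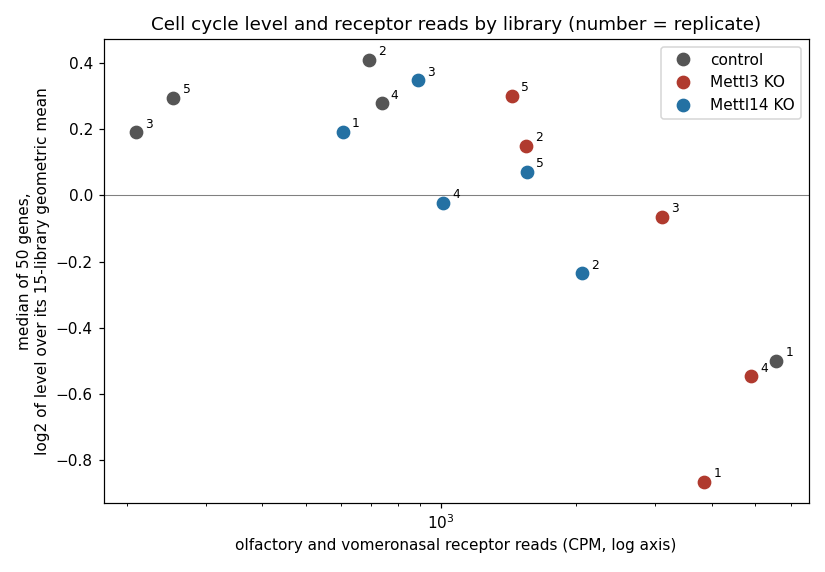
Index of the 50 cell cycle genes in each library (vertical axis, log2) against its reads in olfactory and vomeronasal receptor genes (horizontal axis, CPM without TMM scaling, log axis). Numbers are replicates. The 3 libraries with the most receptor reads, control 1, Mettl3 knockout 4 and Mettl3 knockout 1, have the 3 lowest indices.

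The level of these genes moved with receptor reads, as the plot of index against receptor reads shows. The receptor level was 5578 CPM in control replicate 1, 4895 CPM in Mettl3 knockout replicate 4 and 3854 CPM in Mettl3 knockout replicate 1, the same 3 libraries that had the lowest cell cycle index. Reads aligned outside genes were 78.6%, 78.0% and 71.6% of the reads in them, and were 44.3 to 69.2% in the other 12. With the log2 receptor level as a covariate, 0 members passed in Mettl3 knockout and the median difference was -0.03. The covariate is tied to group: receptor levels were 1438 to 4895 CPM in Mettl3 knockout and 209 to 738 CPM in the controls other than replicate 1. That fit can therefore take up group differences of any origin, and it also moved the T cell marker median from 1.48 to 0.90. With the receptor reads per kilobase taken off every count, an alternative added after seeing the data, 0 of 49 members passed and the median was -0.04. In the same 2 settings the knockouts differed from each other by medians of 0.05 and 0.07, and Mettl14 knockout from control by -0.02 and -0.09. Between the knockouts these settings changed the sign of 29 and 35 of the 50 members.

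The base composition of the transcripts also moved with the differences. The longest coding transcript had a median G+C of 50.1% among S phase genes and 46.6% among mitosis genes. Across 49 members without Fen1, Spearman's rho between G+C and the log2 difference was 0.38 in Mettl3 knockout, 0.56 in Mettl14 knockout and -0.19 between the knockouts. The genes share their libraries and controls, so these are descriptions. Within the controls, where no knockout is involved, the log2 ratio of replicate 2 over replicate 5 had a rho of -0.79 with G+C, a pair chosen after its values were seen. The same ratio had a rho of 0.51 with transcript length, and within the 25 mitosis genes of 0.76 with length and -0.80 with G+C. For the differences from control, rho with length was -0.08 in Mettl3 knockout and -0.17 in Mettl14 knockout. The part of base composition and length in the S phase and mitosis gap was not tested.

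**Figure D5:**
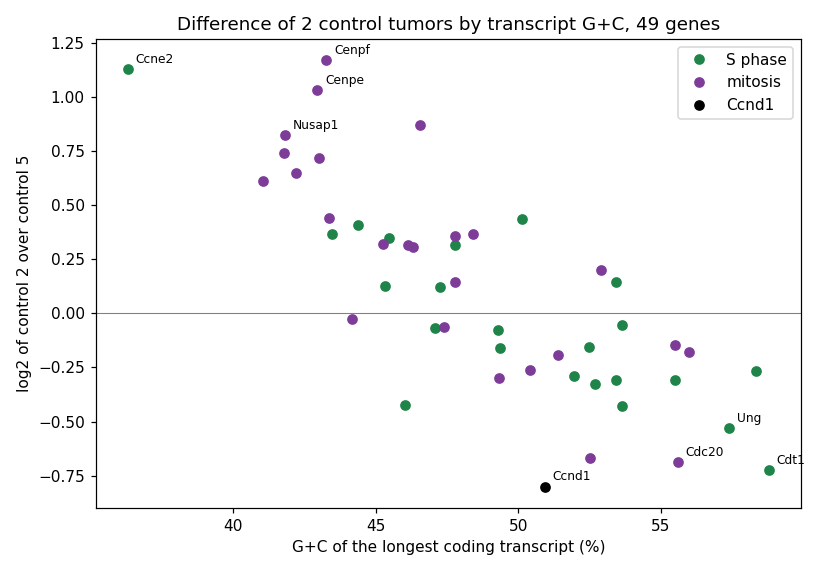
Log2 ratio of control replicate 2 over control replicate 5 (vertical axis) against the G+C of each gene's longest coding transcript (horizontal axis, %) for 49 cell cycle genes, coloured by phase. Genes of low G+C stand higher in control replicate 2, with a Spearman's rho of -0.79.

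The plot of G+C in 2 controls shows a relation between 2 libraries of 1 group, picked after their values were seen. Its rho is for a ratio of 2 single libraries, so it cannot be ranked against those for differences between groups of 5. Cenpf, Ccne2 and Cenpe, with transcripts of 43.3%, 36.3% and 42.9% G+C, were the genes for which control replicate 2 stood farthest above control replicate 5, by 1.17, 1.13 and 1.03 on the log2 scale.

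Other genes of the pathway were read from 3 further lists. Over all genes in Mettl3 knockout, 27% were lower at an unadjusted p under 0.05, with a median of -0.14. Of 40 other replication genes, edgeR called 0 in Mettl3 knockout, 17 were lower at an unadjusted p under 0.05, and the median was -0.38. The smallest p-values were those of the origin recognition genes Orc4 (-0.82, SE 0.21, adjusted p = 0.0524) and Orc2 (-0.88, SE 0.22, adjusted p = 0.0524). Of 45 other mitosis genes, 0 were called, 7 were lower at an unadjusted p under 0.05, and the median was -0.34. Cks2, a subunit of Cdk complexes, had -0.72 (SE 0.19, adjusted p = 0.0529), and Wee1, the kinase that holds Cdk1 inactive, had -0.90 (SE 0.26, adjusted p = 0.0579). Of 28 tested G1 regulators and CDK inhibitors, 0 were called, 14 were lower at an unadjusted p under 0.05, and the median was -0.45. Ccnd2, a cyclin D, had -0.69 (SE 0.19, adjusted p = 0.0561), and Tfdp2, a partner of E2F proteins, had -0.59 (SE 0.17, adjusted p = 0.0577). DESeq2 called 5, 1 and 2 genes of the 3 lists, all lower, where it called 9.09% of all genes as lower.

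In Mettl14 knockout none of the 3 lists had a gene called by edgeR or DESeq2. At an unadjusted p under 0.05, 2 replication, 3 mitosis and 2 G1 genes were lower, of 40, 45 and 29, with medians of -0.12, -0.14 and -0.09, against 6.6% of all genes and a median of -0.09. The smallest p-values were those of Rpa3 (-0.50) and Orc4 (-0.45), Cks2 (-0.55) and Cep55 (-0.41), and Tfdp2 (-0.53) and E2f5 (-0.44). Between the knockouts 0 genes of the lists were called by either tool, and at an unadjusted p under 0.05, 2 replication, 0 mitosis and 4 G1 genes were lower, against 8.04% of all genes. The lowest p-values were those of Cdkn1a, the inhibitor p21 (-0.95, SE 0.25, adjusted p = 0.349), and Ccnd2 (-0.65, SE 0.20), both lower in Mettl3 knockout, then Orc1 (-0.50) and Pold2 (-0.54) of replication and Wee1 (-0.49) and Bub3 (-0.41) of mitosis.

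Marker genes of other cell types were read from lists as well. The summed level of 12 T cell markers ran from 17.7 to 65.4 CPM in control, from 68.4 to 232 CPM in Mettl3 knockout and from 42.7 to 341 CPM in Mettl14 knockout. All 12 had estimates above 0 in both knockouts, with medians of 1.48 and 1.54, and edgeR called 0 in either. At an unadjusted p under 0.05, 11 were higher in Mettl3 knockout and 9 in Mettl14 knockout, against 5.26% and 4.74% of all genes. DESeq2 called 8 and 5 as higher, against 2.6% and 1.5% of all genes. The 10 macrophage markers summed to 774 to 1348, 693 to 1625 and 1014 to 2775 CPM, and the 8 fibroblast markers to 1406 to 3305, 1271 to 4286 and 1915 to 7560 CPM in the same order. Of the 10 macrophage markers, 6 had estimates above 0 in Mettl3 knockout (median 0.06) and 8 in Mettl14 knockout (median 0.48). The 8 epithelial markers summed to 190.2 to 243 CPM in control, 59.4 to 114 CPM in Mettl3 knockout and 84.8 to 172 CPM in Mettl14 knockout, so every library of both knockouts lay below every control. Most of that sum was Krt20, an intestinal keratin, with means of 187, 57.7 and 103 CPM in the same order. Krt18 averaged 14.2, 8.004 and 9.25 CPM. The other 6, Epcam and Krt8 among them, had group means of 0.825 to 6.74 CPM and went the other way in Mettl3 knockout, with higher means than in control. Of the 6 epithelial markers tested there, 4 had estimates above 0, with a median of 0.46. Set beside genes of like abundance, however, 4 of the 6 tested lay below, with a median of -0.21. With the receptor level as a covariate the median of the 6 was -0.25. In Mettl14 knockout 3 of 8 were above 0, with a median of -0.37. In Mettl3 knockout, edgeR called 5 genes of the marker lists, all lower, where it called 179 of all 21427 genes as lower. The 5 were the macrophage receptor Cd163 (-1.50, adjusted p = 0.0102), Krt20 (-1.76, adjusted p = 0.0217) and the globins Hbb-bs (-2.62, adjusted p = 0.0349), Hba-a1 (-2.16, adjusted p = 0.0463) and Hbb-bt (-2.74, adjusted p = 0.0485). In Mettl14 knockout edgeR called 0 of them, and the 5 tested erythroid genes were lower at an unadjusted p under 0.05 and called by DESeq2, which called 0.84% of all genes as lower. Krt20 had -0.89 there (adjusted p = 0.196). The 6 endothelial markers summed to 163 to 282, 156 to 244 and 169 to 280 CPM in the same order. The part of the cell mixture in the cell cycle levels was not tested.

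The authors' deposited table of fold changes gives the same members values of its own. For Mettl3 knockout, the authors' deposited table has a mean signal of 258 for Fen1 and 117 for Rfc4. The counts used here gave these genes 1.31 and 12.5 CPM, so the authors' deposited table rests on other gene counts. For Mettl3 knockout, the authors' deposited table has 0 of 50 members under an adjusted p of 0.05, 44 with a log2 fold change below 0 and a median of -0.24, and it has 1871 of 16160 genes under that threshold. For Mettl14 knockout, the authors' deposited table has 0 members under it, 37 below 0 and a median of -0.10, with 503 of 16861 genes under it. The smallest adjusted p of a member in the authors' deposited table is 0.169 for Cdk1 in Mettl3 knockout and 0.219 for Ccnb1 in Mettl14 knockout.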

How the data were processed

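The series holds 27 samples, of which the 15 RNA-seq libraries (5 per group) were used. The 12 samples of m6A immunoprecipitation and its inputs were not analysed here. Groups follow the sample titles, although Mettl4 is written as the genotype where the title says Mettl14. Per the labels' protocols, reads were single, 75 nucleotides long, and both ribosomal depletion and poly(A) selection are named. The authors deposited raw counts per gene. The mm10 build, HISAT2 2.1.0, cutadapt 1.18, DESeq2 and HTSeq 0.11.2 are named in the submitters' processing notes; annotation and strand setting are not given there. The authors also deposited log2 fold changes, p-values, a test score and a mean signal of scaled counts per gene, with settings not stated. Their fold changes, adjusted p-values and signal are quoted only where named, and their score was not used.

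The control columns were identical in both count tables and were used once. No pair of replicates differed by less than sampling noise (chi-square per gene at least 11.56). Lines for reads in no single gene held 56.8 to 86.2% of reads and stayed out of library sizes. Of 54752 gene identifiers, 54723 matched a symbol. Counts were tested in edgeR 4.0.16 (R 4.3.3) with filterByExpr (minimum count 10), TMM scaling and the robust quasi-likelihood test, adjusted by Benjamini-Hochberg over all genes tested at a threshold of 0.05, with 10 libraries per comparison with control and all 15 between knockouts. The script was tested on simulated data. Alternatives were DESeq2 1.42.0, other scalings and filters, a replicate block, the receptor level as covariate, leaving out each library, and, added after seeing the data, counts less the receptor density. Promoters come from RefSeq (GRCm38.p6), exon lengths and overlaps from GENCODE M21; tables were joined in Python 3.11.15.

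The members and all lists were chosen with earlier results of these data known. Any member could be named; of the other pathway lists, genes that passed, or otherwise the 2 smallest p-values per list. Intervals are 95% and cover the spread between libraries.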

Additional observations from a re-analysis of the deposited data

Results flagged for a closer look

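In 4 of the 150 sets of 5 libraries (50 genes in 3 groups) 1 library stood far from the other 4, with a gap over 0.71 of the whole range, where chance gives about 1 set in 20. Mcm6 in control replicate 1 was at 106.3 CPM, below the other controls at 229.4 to 264.4 CPM. This is the control with the most receptor reads. E2f1 in Mettl14 knockout replicate 1 was at 43.59 CPM, above the others at 27.35 to 31.19 CPM. Ccne2 in control replicate 2 was at 116.1 CPM, above the other controls at 47.2 to 65.6 CPM, and Cenpe in the same library was at 508.4 CPM, above the others at 238.8 to 289.5 CPM. Both transcripts are low in G+C, at 36.3% for Ccne2 and 42.9% for Cenpe.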

How the results depend on the processing

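Leaving out each library in turn gave 0 to 4 called members in Mettl3 knockout and 0 to 1 in Mettl14 knockout, in both cases above 0 only without control replicate 1. It gave medians of -0.49 to -0.07 and -0.24 to -0.06, and an S phase less mitosis gap of -0.107 to 0.047 and 0.039 to 0.168. The lowest gap in Mettl14 knockout, 0.039, came without control replicate 2, and the Mettl3 knockout median was -0.19 without that library and -0.23 without control replicate 5. The Mettl14 knockout median was -0.24, -0.06 and -0.07 without control replicates 1, 2 and 5, and -0.07, -0.20 and -0.08 without Mettl14 knockout replicates 2, 3 and 4. Without control replicate 1, genes called in Mettl3 knockout numbered 11625, against 266 with it, and the cause was not tested. With the replicate number as a block, 16 members were called lower in Mettl3 knockout, where 19.2% of all genes were, and 0 in Mettl14 knockout. The labels do not say whether equal numbers mark paired libraries, and correlations cannot settle it. Same-numbered libraries of Mettl3 knockout and control correlated at 0.619, 0.058, -0.243, -0.226 and 0.573, and only replicate 1 correlated best with its own number. DESeq2 called 2504 genes and 0 members in Mettl3 knockout, and 505 genes and 0 members in Mettl14 knockout. Between the knockouts, all 19 alternatives called 0 members, and leaving out each knockout library gave medians of -0.40 to -0.09 and an S phase less mitosis gap of -0.193 to -0.089. With the receptor covariate, 20 of 50 members changed sign in Mettl3 knockout, 12 in Mettl14 knockout and 29 between the knockouts, without being called. By mean level over the 15 libraries, reads were fewest for Fen1 (1.31 CPM), Ung (10.2 CPM) and Rfc4 (12.5 CPM).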
